A study of Caenorhabditis elegans with 2 samples.

Results

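Autosomal intronic regions are stretches of the genome listed as peaks or background in a study of binding by the nuclear hormone receptor NHR-76 of Caenorhabditis elegans. The strongest point of each, the summit, lay inside an intron on chromosome I, II, III, IV or V. They were chosen by position alone. From the list made from both replicates together (the pooled list), a region was kept when its summit lay in a gene, in no exon, outside the promoter window of every protein-coding gene (from 1000 bp before the gene's 5′ end to 200 bp after it) and more than 200 bp from any tRNA, snRNA, snoRNA or rRNA gene. This kept 3535 of 13052 pooled regions (27.1%), with 734 on chromosome I, 588 on II, 740 on III, 819 on IV and 654 on V. Most regions were 370 bp wide. The rule used the 5′ end of the gene, and 539 of the 3535 (15.2%) still lay in the promoter window of another transcript of a gene. Protein-coding genes hosted 3487 of them and pseudogenes 36.

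The study measured binding by ChIP-seq, the sequencing of DNA pulled down with an antibody to a protein, in whole L4 larvae, the last larval stage, of strain OP203, which carries the integrated transgene wgIs203 for eGFP-tagged NHR-76 and the unc-119(ed3) allele on chromosome III. There was 1 group, mixed in sex, with 2 biological replicates per the labels, and no untagged or other control sample was analysed here. The tagged protein came from a transgene, and in whole larvae binding in few cells and weak binding in many cells cannot be told apart. Regions were called by the irreproducible discovery rate (IDR), a procedure that compares the ranks of peaks between replicates and keeps those placed alike. A pooled region counts here as called when an IDR-called summit lay within 200 bp of its own summit. The signal value of a region is a score from the depositors' processing with no stated scale, so it ranks regions within 1 list and says nothing across lists, and the depth behind it is unknown.

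Nuclear hormone receptors are transcription factors with a zinc-finger DNA-binding domain and, in most cases, a pocket for a lipid-like ligand, and the family is much enlarged in nematodes. NHR-76 has been linked to fat use in the worm intestine, through the lipase gene atgl-1. Introns of worm genes are mostly short, and the long ones often hold enhancers and the start sites of shorter transcripts.

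The 6 strongest called regions and the 3 strongest uncalled ones show what the DNA at these summits looked like, and the called region in nhr-76 itself was added after its values were seen. Each line gives the 200 bp around the summit on the plus strand of ce11 (WBcel235), read from the NCBI RefSeq copy of that assembly. Capitals mark matches, on either strand, to 16 short motifs, among them the GAGA repeat GAGAGA, the E-box CACGTG, the nuclear receptor half-site AGGTCA with its variants AAGTCA and AGTGCA, and the octamer GACGCAGA, which was added to the search after these sequences were read. The 6 strongest called regions come first.
pqn-41 (chrIII:1925226-1925425): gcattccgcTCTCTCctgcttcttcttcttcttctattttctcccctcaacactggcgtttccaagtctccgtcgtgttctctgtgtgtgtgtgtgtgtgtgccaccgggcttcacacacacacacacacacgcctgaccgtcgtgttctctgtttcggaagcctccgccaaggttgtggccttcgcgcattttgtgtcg
epg-9 (chrIV:2602091-2602290): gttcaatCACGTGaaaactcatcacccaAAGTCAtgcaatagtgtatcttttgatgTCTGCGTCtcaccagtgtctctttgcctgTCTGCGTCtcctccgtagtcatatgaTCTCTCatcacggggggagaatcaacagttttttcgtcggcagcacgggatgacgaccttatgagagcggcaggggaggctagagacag
Y111B2A.12 (chrIII:12612527-12612726): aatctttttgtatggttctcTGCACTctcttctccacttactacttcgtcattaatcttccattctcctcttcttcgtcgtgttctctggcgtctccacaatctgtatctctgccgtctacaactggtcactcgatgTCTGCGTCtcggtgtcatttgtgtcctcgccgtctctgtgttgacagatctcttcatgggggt
pkg-2 (chrIV:8527695-8527894): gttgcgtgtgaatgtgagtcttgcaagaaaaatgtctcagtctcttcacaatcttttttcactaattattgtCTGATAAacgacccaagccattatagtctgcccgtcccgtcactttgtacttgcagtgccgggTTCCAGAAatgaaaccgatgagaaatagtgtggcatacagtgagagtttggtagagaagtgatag
mnk-1 (chrII:10552014-10552213): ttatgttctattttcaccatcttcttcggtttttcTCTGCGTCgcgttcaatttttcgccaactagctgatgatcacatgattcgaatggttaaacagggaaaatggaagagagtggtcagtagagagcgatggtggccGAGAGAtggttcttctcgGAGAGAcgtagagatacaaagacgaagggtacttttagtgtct
pqn-41 (chrIII:1921359-1921558): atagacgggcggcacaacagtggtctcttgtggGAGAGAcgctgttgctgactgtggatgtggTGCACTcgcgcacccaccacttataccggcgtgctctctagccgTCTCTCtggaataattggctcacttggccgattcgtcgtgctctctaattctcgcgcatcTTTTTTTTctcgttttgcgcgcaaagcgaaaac
The strongest uncalled regions were the following.
hlh-30 (chrIV:4019080-4019279): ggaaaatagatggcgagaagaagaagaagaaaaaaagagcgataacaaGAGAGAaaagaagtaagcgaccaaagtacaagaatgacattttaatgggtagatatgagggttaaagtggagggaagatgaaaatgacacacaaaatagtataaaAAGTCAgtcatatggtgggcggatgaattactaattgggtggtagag
srh-2 (chrV:731444-731643): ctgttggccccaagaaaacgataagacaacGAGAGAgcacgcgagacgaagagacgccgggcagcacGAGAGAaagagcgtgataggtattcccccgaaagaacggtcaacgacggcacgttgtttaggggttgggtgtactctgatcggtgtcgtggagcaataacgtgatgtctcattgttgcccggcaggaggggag
scc-2 (chrII:255233-255432): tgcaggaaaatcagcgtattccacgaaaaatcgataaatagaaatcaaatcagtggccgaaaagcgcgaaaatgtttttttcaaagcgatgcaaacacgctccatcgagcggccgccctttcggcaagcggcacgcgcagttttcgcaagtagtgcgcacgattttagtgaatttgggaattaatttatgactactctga
The called region in intron 2 of nhr-76 read as follows.
nhr-76 (chrIV:629222-629421): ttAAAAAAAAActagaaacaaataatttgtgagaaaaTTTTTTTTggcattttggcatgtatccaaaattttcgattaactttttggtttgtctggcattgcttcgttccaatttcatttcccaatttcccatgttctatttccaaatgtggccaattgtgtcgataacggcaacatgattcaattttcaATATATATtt

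GAGAGA stood in 4 of the 6 strongest called windows, at both pqn-41 summits and at epg-9 and mnk-1. GACGCAGA stood in 3 of them, at epg-9, Y111B2A.12 and mnk-1. The nhr-76 window held neither, and was rich in A and T, with a GC content of 29.5%. The uncalled windows in hlh-30 and srh-2 held GAGAGA as well, and the one in scc-2 held none of the 16 motifs. In the longest coding transcript the intron at the srh-2 summit was 42 bp long. Most of that window, with its GAGAGA matches, lay outside this intron. The full counts of these motifs are given further on, beside their background.

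Few autosomal intronic regions were called. Of the 3535, 35 were called (0.990%, exact 95% interval 0.691 to 1.37), against 2.48% of all 13052 pooled regions. Promoter regions of the autosomes were called in 132 of 3329 cases (3.97%, interval 3.33 to 4.68), intergenic ones in 41 of 2314 (1.77%), exonic ones in 17 of 1330 (1.28%) and introns of the X chromosome in 14 of 665 (2.11%, interval 1.16 to 3.51). The interval of the autosomal introns did not overlap that of the promoters but overlapped those of the exons, the intergenic regions and the X introns. These intervals cover counting error only, and regions of 1 experiment are not replicates. The 35 called regions lay beside 32 separate IDR-called peaks, since at vhp-1, egl-27 and mnk-1 a weaker pooled region lay about 200 bp from a stronger one and was counted with the same peak. All 32 of those peaks had their own summit in an autosomal intron. The 35 lay in 28 introns of 27 genes.

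Both replicates ranked the called regions high. Their median rank by signal value was 224 in replicate 1, where all 35 were listed within 200 bp, and 200 in replicate 2, where 34 were. Since IDR calls regions by ranks that recur, this is a description of the call and not support for it. The uncalled regions had a median rank of 8102 in replicate 1 and 7839 in replicate 2, where listed at all. Replicate 1 listed 78.1% of the 3535, replicate 2 listed 63.3%, both listed 1551 (43.9%) and neither listed 88 (2.49%). Among promoter regions both replicates listed 53.7%, and among all pooled regions 48.8%. A second measure, a place within the 1000 strongest regions of both replicates, was met by 55 autosomal intronic regions (1.56%, interval 1.17 to 2.02) against 3.62% of all pooled regions and 5.29% of the promoter regions. Of the 55, 29 were called and 26 were not.

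**Figure D1:**
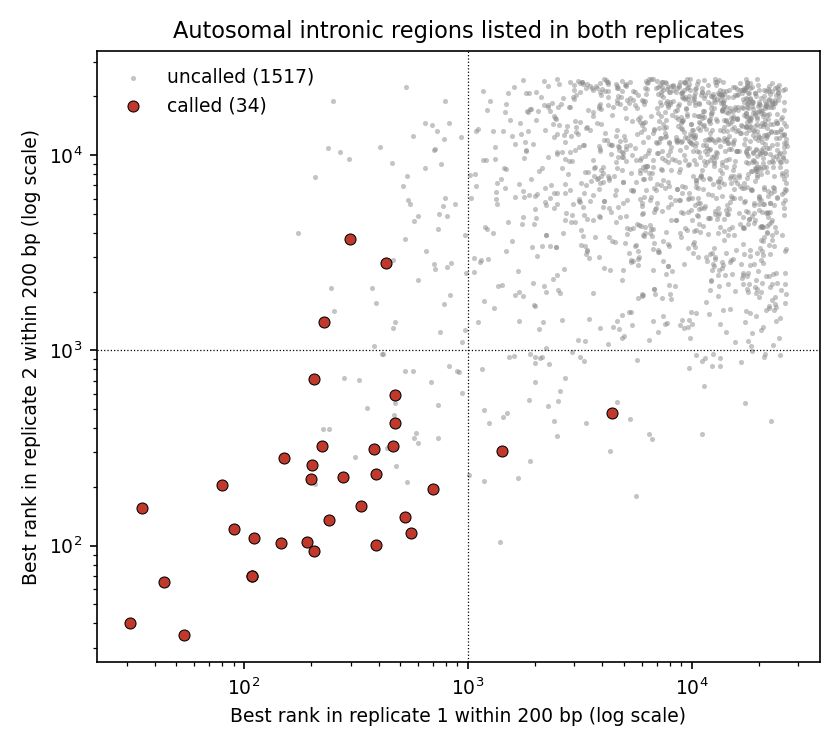
Rank of each autosomal intronic region listed in both replicates, in replicate 1 (x axis) and replicate 2 (y axis), both on log scales with rank 1 the strongest. Red points are the 34 called regions and grey points the 1517 uncalled ones, dotted lines stand at rank 1000, and most red points sit in the lower left corner where the ranks of both replicates are under 1000.

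The share of autosomal introns grew steadily down each list, in the pooled list and in both replicates alike. Of the 100 strongest nuclear regions of the pooled list, 9.0% had their summit in an autosomal intron, then 11.9% of those ranked 101 to 319, 15.3% of those ranked 320 to 1000, 19.0% of those ranked 1001 to 2500, and 31.4% of those past rank 10000. In replicate 1 the share went from 8.0% to 31.1% between the first and the last of these rank classes, and in replicate 2 from 12.0% to 30.3%. The share of promoters went the other way in the pooled list, from 47.0% of the 100 strongest to 21.1% past rank 10000. The depositors' name for these lists says that they hold peaks and background, so the weak end need not be binding at all.

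**Figure D2:**
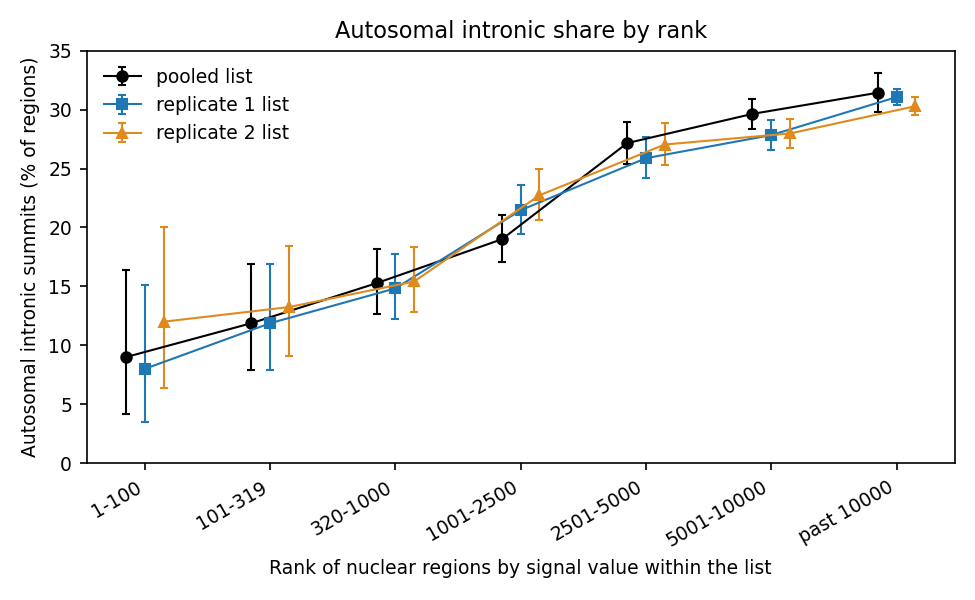
Share of nuclear regions whose summit lay in an autosomal intron (y axis, percent) by rank class (x axis) in the pooled list and the list of each replicate, with exact 95% intervals as bars. All 3 lines rise from between 8.0% and 12.0% in the 100 strongest regions to between 30.3% and 31.4% past rank 10000.

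The strongest autosomal intronic regions lay in genes with quite different roles. The strongest of all was in pqn-41, which encodes a glutamine- and asparagine-rich protein needed for the death of the linker cell in males, and it had a signal value of 186 and ranked 31 in replicate 1 and 40 in replicate 2. It sat in intron 14 of 22, which is 10372 bp long and held 2 more called regions, with signal values of 95.5 (ranks 90 and 122) and 60.3 (ranks 224 and 325). The next was in intron 2 of epg-9, an autophagy gene related to ATG101, with a signal value of 152 and ranks of 54 and 35. Intron 4 of Y111B2A.12 followed with a signal value of 138 and ranks of 44 and 65. The 5 regions described here kept a high rank in both replicates, the weakest of them at 325.

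Among protein kinase genes, 3 of 10 regions were called in pkg-2 and 2 of 8 in mnk-1. None was called of 13 in par-1 or of 10 in egl-4. Over all autosomal intronic regions the called share was 0.990%. In pkg-2, which encodes a cGMP-dependent protein kinase, intron 4 held called regions with signal values of 128 (ranks 35 and 156) and 75.8 (ranks 191 and 104), and intron 5 held another with a signal value of 93.7 (ranks 111 and 110). In mnk-1, a kinase that acts downstream of MAP kinases, intron 2 held a called region with a signal value of 101 (ranks 109 and 70). The weaker neighbour in the same intron had a signal value of 23.3 and was counted through the same called peak. In vhp-1, which encodes a phosphatase that switches MAP kinases off, the stronger of the neighbouring pair had a signal value of 51.3 (ranks 151 and 282). The weaker one, with 34.3, had no region of replicate 2 within 200 bp.

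Genes of transcription factors were among the hosts of called regions. The nuclear receptor genes were nhr-76 itself (signal value 90.3, ranks 80 and 205) and nhr-19 (80.7, ranks 241 and 135), both in intron 2. First introns held called regions in fkh-7, a forkhead factor gene (83.4, ranks 146 and 103), in lag-1, whose product is the DNA-binding factor of Notch signalling (71.5, ranks 205 and 94), in let-607, a bZIP factor gene (68.4, ranks 560 and 116), and in zip-2, a bZIP factor gene of the response to infection (57.2, ranks 391 and 232). In jun-1, a gene of an AP-1 factor, the called region lay in intron 6 of 7 (65.5, ranks 202 and 259). The ranks of replicate 1 were the weaker ones at let-607, zip-2, lag-1, fkh-7 and nhr-19, and those of replicate 2 at nhr-76 and jun-1, so no replicate was the stronger throughout.

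The genes of 3 factors that govern metabolism and stress resistance each held 1 called region, out of 16 in daf-16, 10 in hlh-30 and 3 in skn-1. The called share over all autosomal intronic regions was 0.990%. In daf-16, the FOXO factor of insulin signalling, it lay in intron 3 of 11, which is 12401 bp long, with a signal value of 56.7 and ranks of 335 and 159. In skn-1, a factor of the Nrf type for oxidative stress, it lay in intron 1 with 56.6 and ranks of 463 and 322. In hlh-30, the TFEB factor of autophagy and lysosome genes, it lay in intron 2 with 43.3 and ranks of 432 and 2811, so that replicate 2 placed it much lower. A stronger region in the same hlh-30 intron, with a signal value of 60.4 and ranks of 239 and 394, was not called. It was the strongest uncalled region of all autosomal introns, and its summit lay in the promoter window of another transcript.

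The other called regions spread over enzymes, regulators and genes of no described role. They were at psd-1, for phosphatidylserine decarboxylase (signal value 69.3), saeg-1, which works with the kinase EGL-4 (62.4), tbc-6, with a domain of Rab GTPase-activating proteins (61.8), ncl-1, a repressor of nucleolar size, with 57.6 and 44.0, cyp-36A1, a cytochrome P450 gene (54.4), egl-27, a relative of the MTA chromatin proteins, with 53.3 and 23.8, eif-2Bdelta, a subunit of the translation factor eIF2B (53.2), and glb-15, a globin gene (41). T28F4.1 (66.7), W06H8.6 (64.9) and F43H9.4 (50.6) completed them. Among these, F43H9.4, with ranks of 299 and 3717, glb-15, with ranks of 4429 and 476, eif-2Bdelta, with ranks of 228 and 1403, and the weaker ncl-1 region, with ranks of 1420 and 305, were each within the 1000 strongest regions of 1 replicate alone.

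Calls did not follow signal value alone. The called regions had signal values from 23.3 to 186 with a median of 62.4, and the uncalled ones from 15.3 to 60.4 with a median of 18.4. The values of 23.3 (mnk-1), 23.8 (egl-27) and 34.3 (vhp-1) belonged to weaker neighbours counted with the peak of a stronger region. The lowest called value apart from these was 41, at glb-15. After hlh-30, the strongest uncalled regions were in srh-2, a chemoreceptor gene (60.2, ranks 225 and 398), scc-2, for the cohesin loader (59.2, ranks 437 and 318), Y47D3A.32 (57.8, ranks 536 and 213) and daf-5, a gene of the TGF-beta pathway for dauer formation (56.0, ranks 207 and 207). The summits in hlh-30, srh-2, scc-2 and Y47D3A.32 lay in the promoter window of another transcript, and the one in daf-5 did not. Both replicates placed 19 autosomal intronic regions within their 319 strongest, the number of IDR-called peaks in the series. Of these, 17 were called, and daf-5 and zfp-1, with ranks of 313 and 283, were not. Another 18 called regions met that limit in 1 replicate or in neither.

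The called regions lay mostly in long introns, and further from the ends of the host intron than uncalled ones. The host intron, taken in the longest coding transcript, had a median length of 4347 bp for called regions, 1025 bp for uncalled ones and 986 bp over all autosomal intron bases that the rule could have kept (25.925 Mb, read at every 50th base). Introns of over 1000 bp held 31 of 35 called regions (88.6%, interval 73.3 to 96.8), 51.4% of the uncalled ones and 49.5% of those bases. The called share was 0 of 183 in introns under 200 bp (upper bound 2.00%), 0.264% from 200 to under 1000 bp, 1.16% from 1000 to under 5000 bp and 2.94% (interval 1.69 to 4.73) from 5000 bp up. The median distance to the nearer end of that intron was 1090 bp for called and 268 bp for uncalled regions. Exons of other transcripts can lie nearer and were not counted in this distance. The median distance from the 5′ end of the gene was nearly the same, at 3097 bp for called and 3065.5 bp for uncalled regions. Host genes of called regions were also longer, with a median over regions of 12901 bp against 8277 bp, and had a median of 4 coding transcripts against 2.

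Whether the called regions were in first introns depended on the transcript. In the longest transcript, 11 of 35 (31.4%, interval 16.9 to 49.3) lay in the first intron, against 26.8% of uncalled regions and 22.9% of the eligible bases. Counting an intron as first when it was first in any transcript, coding or not, the shares were 65.7% (interval 47.8 to 80.9), 38.3% and 31.7%. Only by the second count did the interval of the called regions lie above the uncalled share. The called regions also had the more transcripts per host, and the part of that in this difference was not tested. Of the called regions, 3 lay in the promoter window of another transcript (8.57%, interval 1.80 to 23.1), against 15.3% of the uncalled.

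GC content and repeats set the called regions apart more than intron number did. The 200 bp around the summit had a mean GC content of 42.1% ± 8.16 (SD over 35 called regions), 31.0% ± 6.99 (SD over 3500 uncalled regions) and 33.6% ± 7.30 over the eligible bases. Uncalled regions were thus poorer in GC than the intron bases at large, and called ones richer. The called share was 0.148% below a GC content of 25%, 0.108% from 25% to 30%, 0.313% from 30% to 35%, 1.59% from 35% to 40% and 5.15% (interval 3.21 to 7.76) from 40% up. Summits on bases masked as repeats in the reference made up 61.6% of uncalled regions and 54.2% of the eligible bases, but 6 of 35 called regions (17.1%, interval 6.56 to 33.6). As another choice, the 319 strongest regions of 1 replicate, mitochondrial ones included, took the place of the calls. The masked share was then 8.57% for replicate 1 and 23.1% for replicate 2.

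Masking and GC content were linked, and both moved with the call. Of masked regions under 35% GC, 1 of 1777 was called, and of masked ones at 35% GC or more, 5 of 386 (1.30%). Of unmasked regions the counts were 4 of 785 (0.510%) and 25 of 587 (4.26%, interval 2.77 to 6.22). The called share was higher at high GC within each mask class, with intervals that did not overlap. It was also higher without masking within each GC class, but there the intervals overlapped. Without the masked regions, 29 of 1372 autosomal intronic regions were called (2.11%, interval 1.42 to 3.02). Of unmasked nuclear regions, 253 of 7122 were called (3.55%, interval 3.13 to 4.01). Of unmasked autosomal promoter regions, 109 of 1974 were (5.52%, interval 4.56 to 6.62), so the introns remained below both. The other unmasked parts were not set apart from them. Autosomal exons had 1.56% (interval 0.873 to 2.55) and intergenic regions 2.84% (interval 1.98 to 3.93). X introns had 3.61% (interval 1.94 to 6.10), and each of these intervals overlapped that of the autosomal introns. The masked share of autosomal intronic regions was 61.2%, against 45.9% in X introns and 40.7% in autosomal promoters. In the pooled list it was 22.2% of the 9 intronic regions among the 100 strongest, 11.5% of the 26 ranked 101 to 319, 27.9% of those ranked 320 to 1000 and 63.8% of those past rank 10000. Whether the link of masking and GC content with the call came through binding, mapping or the background was not tested.

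**Figure D3:**
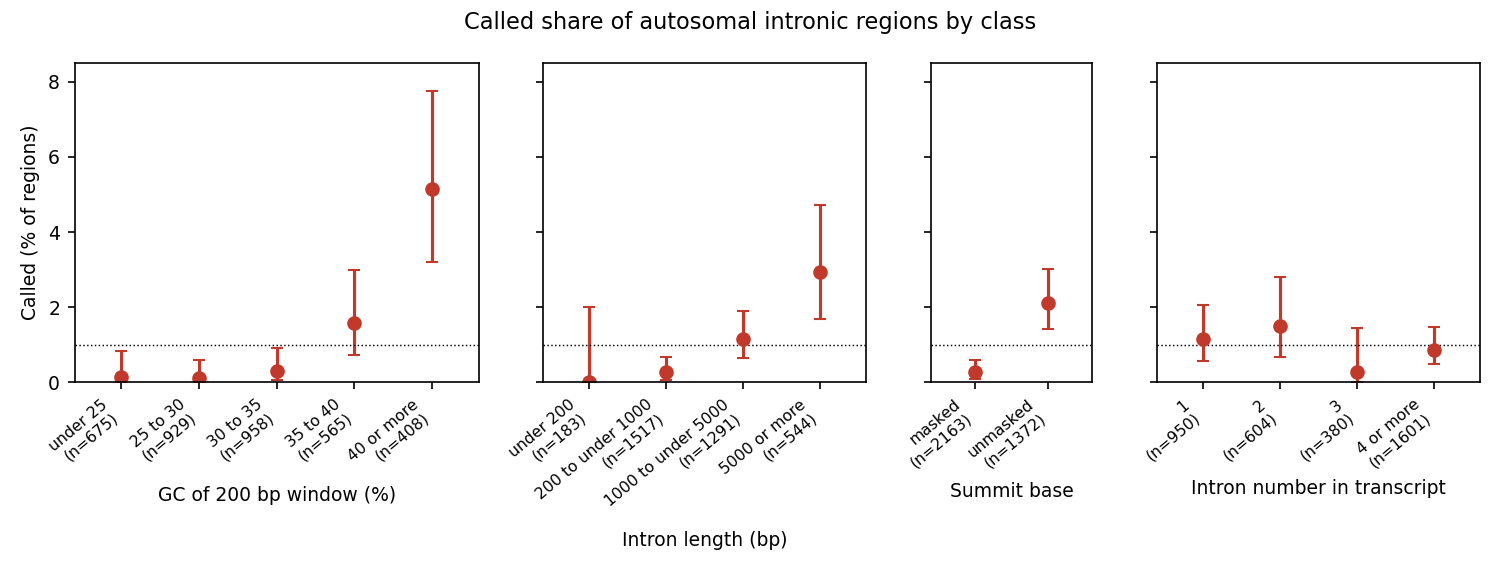
Called share of autosomal intronic regions (y axis, percent, exact 95% intervals as bars) by GC content of the 200 bp window, length of the host intron, masking of the summit base and number of the intron in its transcript, with the number of regions under each class. The dotted line is the share over all 3535 regions, 0.990%, and the called share climbs to 5.15% in the highest GC class and 2.94% in the longest introns, while the 4 classes of intron number have overlapping intervals.

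Along the chromosomes the called share was higher in the middle. The central part of each autosome, one of 3 equal lengths, held 21 called of 1047 regions (2.01%, interval 1.25 to 3.05), and the outer parts 14 of 2488 (0.563%, interval 0.308 to 0.942). By chromosome, 4 of 734 regions were called on I, 9 of 588 on II, 8 of 740 on III, 9 of 819 on IV and 5 of 654 on V, with overlapping intervals. The edge of the promoter window showed no step that these counts could resolve. Of 120 regions whose summit lay within 100 bp outside a promoter window, 0 were called (upper bound 3.03%), and of 158 intronic summits within 100 bp inside one, 1 was. Over all 342 intronic summits inside promoter windows, 5 were called (1.46%).

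The sequences printed above hold the motif that had, of the 16 searched, the widest gap between called and uncalled regions in percentage points. GAGAGA, on either strand, stood in 21 of 35 called windows (60.0%, interval 42.1 to 76.1), in 11.6% of uncalled ones (interval 10.5 to 12.7) and in 15.4% of all 13022 nuclear pooled windows of that length. Among uncalled regions with a GC content of 35% or more it was in 25.6%, which is still below the interval of the called ones. The 21 windows lay in 17 of the 27 host genes. The lists of single replicates were split at their 319 strongest nuclear regions. In replicate 1, GAGAGA stood in 25 of the 34 autosomal intronic regions among these and in 8.76% of the others. In replicate 2 it stood in 21 of 41 against 9.0%. Called autosomal promoters held GAGAGA in 39.4% (interval 31.0 to 48.3), uncalled ones in 16.8% and uncalled ones at 35% GC or more in 25.6%. The gap was thus not limited to introns. In 100 bp windows the shares in introns were 40% called and 6.40% uncalled.

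The E-box CACGTG stood in 6 called windows (17.1%, interval 6.56 to 33.6), in 3.20% of uncalled ones and in 4.11% of all nuclear windows. The 6 were at epg-9, pkg-2, fkh-7, psd-1, tbc-6 and cyp-36A1. Against uncalled windows at 35% GC or more, with 8.27%, the interval of the called share overlapped. Over all called nuclear regions CACGTG stood in 15.8%. Among called autosomal regions it was in 12.9% of promoters, 17.1% of intergenic regions and 6 of 17 exons (35.3%). Called X introns held it in 5 of 14 windows (35.7%). GACGCAGA stood in 6 called windows as well, at epg-9, Y111B2A.12, mnk-1, W06H8.6, pqn-41 and skn-1, in 1.77% of uncalled ones and in 2.76% of all nuclear windows. Because it was noticed in the printed windows, the 28 called regions not printed are the fairer count, and 3 of those held it (10.7%, interval 2.27 to 28.2). That interval holds the 5.20% of uncalled windows at 35% GC or more. Called autosomal promoters, which played no part in that choice, held it in 18.9% (interval 12.6 to 26.7). Uncalled promoters held it in 4.10%, and those at 35% GC or more in 7.18%. Called autosomal exons held GACGCAGA in 4 of 17 windows (23.5%) and called intergenic regions in 9 of 41 (22.0%). Called X introns held it in 0 of 14 windows (upper bound 23.2%).

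The half-sites that many nuclear receptors recognise were not set apart. AGGTCA stood in 2 of 35 called windows (5.71%), 3.83% of uncalled ones and 4.58% of all nuclear windows, AGTGCA in 2 (5.71%), 4.86% and 6.62%, and AAGTCA in 6 (17.1%, interval 6.56 to 33.6), 8.60% and 8.75%. The extended half-site AAGGTCA was in 1 called window, at F43H9.4, and in 1.37% of uncalled ones. The intervals of all of these overlapped the uncalled shares. With 35 called regions, only a wide gap could be seen. Runs of T, searched as TTTTTTTT, were the commonest of the 16 motifs in uncalled windows, with 42.9%, and stood in 25.7% of called ones (interval 12.5 to 43.3). The other E-boxes CAGCTG and CACCTG each stood in 3 called windows, the GATA-type site CTGATAA in 1, the forkhead-type site GTAAACA in 2, the heat-shock-type pair TTCNNGAA in 4, the bZIP-type site TGACGT in 3, ATATATAT in 1 and CGCGCG in 0, all with intervals that held the uncalled share.

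Among 12 gene lists, insulin and lipid metabolism had the most regions for its share of intron bases. Its genes hosted 61 regions, 1.73% of all, on 0.796% of the eligible intron bases, and 4 of the 61 were called, at nhr-76, hlh-30, daf-16 and skn-1 (6.56%, interval 1.82 to 15.9), against 0.990% of all autosomal intronic regions. Daf-16 alone hosted 16 of the 61. Genes of homeobox and other transcription factors hosted 49, of which 4 were called (8.16%, interval 2.27 to 19.6), at jun-1, zip-2 and both egl-27 regions. Kinases, GTPase regulators and cyclic nucleotide signalling hosted 88, with 3 called (3.41%, interval 0.709 to 9.64), all in pkg-2. Nuclear hormone receptor genes hosted 55, with nhr-76 and nhr-19 called (3.64%, interval 0.443 to 12.5), and their strongest uncalled region was in nhr-97 (53.3, ranks 279 and 724). Genes of Wnt, Notch, TGF-beta and EGF signalling hosted 50, of which lag-1 was called (2.00%, interval 0.0506 to 10.6), and daf-14, a SMAD gene of the TGF-beta pathway, had an uncalled region with 48.3 (ranks 413 and 957). Nhr-76 counts in more than 1 list.

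Lists of structural and neuronal genes had no called intronic region. Ion channels and synapse genes hosted 55 regions with 0 called (upper bound 6.49%), the strongest with a signal value of 36.3 at the chloride channel gene clh-1. Axon guidance and adhesion genes hosted 56 with 0 called, the strongest with 27.8 at cle-1, which encodes a collagen of basement membranes. Muscle and cytoskeleton genes hosted 32 with 0 called, the strongest with 42.6 at erm-1, a linker of membrane and actin (ranks 418 and 955). Chemoreceptor genes hosted 57, 1.61% of regions on 3.37% of the eligible bases, with 0 called. Chromatin and RNA regulators hosted 11, cuticle collagens 4 and cytosolic ribosomal proteins 1, at rps-9, with 0 called in each. The other genes among the 3 strongest regions of these lists were egl-30, lev-11, jac-1, unc-5, srz-29, nurf-1, sfa-1, set-2, col-159 and col-111, with signal values between 17.8 and 34.1 and no call. At a called share of 0.990% over all autosomal introns, a count of 0 in lists of this size says little.

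Regions were spread thinly over many hosts, with some genes holding many. The 3535 regions lay in 2209 host genes, of which 1560 held 1 region, and 84 genes with 5 or more held 591. Per 10 kb of eligible intron the mean was 1.36 regions. Genes with many included daf-16 with 16, lim-9, a LIM-domain gene, with 15, par-1, the polarity kinase gene, with 13, and gcn-1, spsb-1 and vhp-1 with 11 each. The highest signal values in lim-9 and par-1 were 27.6 and 26.9, and none of their regions was called. In daf-16, regions lay in 6 introns, and 8 of 16 were listed in both replicates. Pkg-2 held 10 regions, ncl-1 10, hlh-30 10, mnk-1 8, pqn-41 7 and egl-27 5. These hosts of called regions thus also held uncalled ones. At T28F4.1, zip-2, cyp-36A1, F43H9.4 and glb-15 the called region was the only autosomal intronic region listed. In zfp-1, which encodes a zinc-finger protein of the AF10 type, 4 of 7 regions had signal values between 49.2 and 55.6, and none was called.

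**Figure D4:**
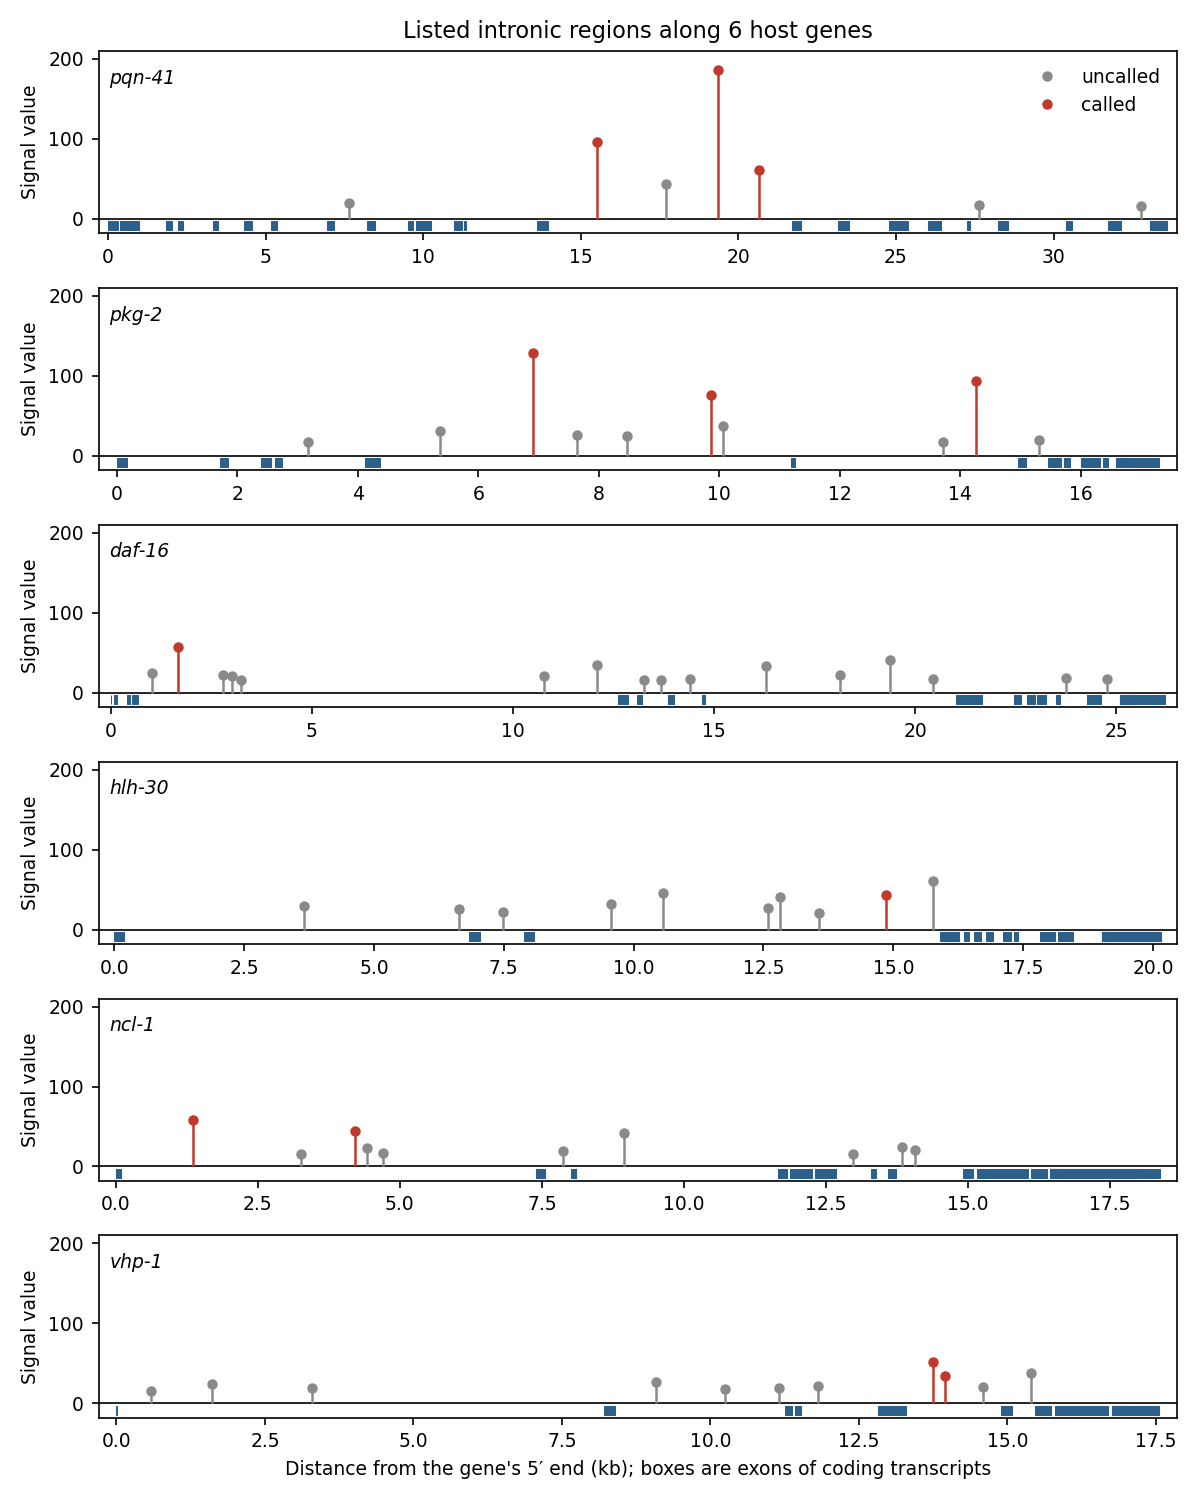
Autosomal intronic regions along 6 host genes, placed by distance of the summit from the 5′ end of the gene in kb (x axis), with the pooled signal value as height (y axis) and exons of coding transcripts as blue boxes. Red stems are called regions and grey stems uncalled ones, and the 3 called regions of pqn-41 sit together in 1 long intron, while in hlh-30 the tallest stem, at 60.4, is grey.

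Of the autosomal intronic regions at the locus of the tagged gene, only the one in intron 2 of nhr-76 was called. The gene runs on the plus strand of chromosome IV from 627537 to 633963 in ce11. Within 50 kb of it lay 7 autosomal intronic regions, 3 of them in nhr-76. Intron 2, from 628071 to 629689, held the called region with its summit at 629321, 1784 bp from the 5′ end. The uncalled regions in introns 6 and 8 had signal values of 21.7 and 22.5, and each was listed in 1 replicate only. The other 4 regions, at K11H12.8, K11H12.9 and the innexin gene inx-18, had signal values between 16.9 and 23.5. The transgene carries nhr-76 sequence, and DNA from the transgene and from the chromosomal gene cannot be told apart in these lists.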

How the data were processed

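Both samples fell in 1 group, with replicate numbers from the labels. The 3 narrowPeak lists on ce11 (pooled and 1 per replicate) and the IDR-called list were used as deposited, and the ce10 lists were not. Per the texts deposited with the samples, the replicate lists held peaks and background found on each alignment with a further file, and the called list came from the pooled and replicate lists by IDR. The aligner, peak caller, IDR threshold and identity of the further file were not given in the sources used here. The deposited signal value, a score of unstated scale, ranked regions within a list. The summit offset deposited with each region, another column of the lists, gave its position. Depth per sample is unknown, so no interval that needs it was made.

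Genes came from Ensembl release 115 (WBcel235) without piRNA genes, and sequence and masking from the RefSeq copy of that assembly. Motifs were searched on both strands in 200 bp windows. A background of eligible bases was read at every 50th base. Shares have exact (Clopper-Pearson) 95% intervals, and no test was run, since 1 group of 2 replicates allows no comparison of groups. The assignment of summits was checked on simulated positions. Python 3.11.15, pandas 2.3.3, NumPy 2.4.6, SciPy 1.17.1 and matplotlib 3.10.9 were used.

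The regions, 12 gene lists and 15 of the 16 motifs were chosen with earlier results of these data known, among them the GAGA and E-box motifs, so their shares are no independent support. Of the list symbols, 8 were not found in the annotation. Hosts named were those of the 25 strongest called and 5 strongest uncalled regions, the 5 with the most regions with ties (1 of which is not reported here), those of the 3 strongest regions of each list and those within 50 kb of nhr-76. The remaining hosts of called regions, zfp-1 and the counts within the 319 strongest regions of both replicates were added after their values were seen. Alternatives were other promoter windows, distances, window sizes, limits of strength, transcript choices, masking rules and single replicates.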

Additional observations from a re-analysis of the deposited data

How the results depend on the processing

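The number of autosomal intronic regions was between 2996 and 3679 over the other promoter and small RNA windows, and the called share stayed between 0.877% and 1.10% under the other windows, distances and overlap rules and with the 50 kb around nhr-76 left out. Leaving out masked regions raised the called share to 2.11% and the share within the 1000 strongest regions of both replicates to 3.28%. That second share was 0.877% for the 500 strongest and 2.60% for the 2000 strongest, which follows from the limit itself. Counting an intron as first in any transcript gave 65.7% of called and 38.3% of uncalled regions. Among uncalled regions above the median signal value, 29.8% lay in first introns and 57.4% were masked. With more than 50% of the window masked as the rule, 56.5% of uncalled regions were masked. In 100 bp windows their mean GC content was 30.3%. In another setting, the 319 strongest regions of the other replicate, mitochondrial ones included, took the place of the calls. The called share was then between 0.990% and 1.10%, and the first-intron share between 34.3% and 38.5%. The masked share was between 8.57% and 23.1%, and the mean GC content between 42.3% and 44.3%. Those calls covered 39 regions without replicate 1 and 35 without replicate 2, of which 25 and 22 were also IDR-called. Single motif shares mostly fell in 100 bp windows, since a shorter window holds fewer matches. Counting the octamer GACGCAGA only in called regions whose sequence is not printed, which gave 10.7%, was chosen after seeing the data. In 100 bp windows the called share was below the uncalled one for AAGTCA (2.86% against 3.74%), CACCTG (0.0% against 1.71%) and ATATATAT (0.0% against 0.543%), and above it for CTGATAA (2.86% against 2.09%), the reverse of 200 bp windows. For single replicates the called share was set against the regions not called by IDR, which hold some of the single-replicate calls. By that measure the order was also reversed for AAGTCA without replicate 1 (7.69% against 8.60%). Without replicate 2 it was reversed for GTAAACA (0.0% against 2.71%) and CGCGCG (2.86% against 0.914%). With 35 called regions and 2 replicates, small differences could not be seen, and no depth was known.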
